A study of Mus musculus with 24 samples.

Results

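The hepcidin genes Hamp and Hamp2 and 8 further genes of hepatic iron handling were followed in the livers of mice with and without the major urinary protein (Mup) gene cluster. The 10 genes were chosen by name, for their role in iron metabolism, out of 25746 genes listed in the count files. Earlier results of these data were known when the genes were chosen. All 10 were expressed above the filter on low counts that left 12330 genes for testing. Mice fell into 4 groups of 6, namely male wildtype (mWT), male knockout (mKO), female wildtype (fWT) and female knockout (fKO) mice. All 24 mice were 12 weeks old, carried the C57BL/6N background (given as C57/BL6N in the labels) and had free access to standard chow until a brief fast, after which they were scanned by microCT under isoflurane and euthanized. The KO mice were homozygous for a CRISPR/Cas9 deletion of the whole Mup cluster and went back to a single male founder, so that they represent 1 deletion event, WT mice were their littermates, and the groups differed in no treatment. Each library came from bulk liver RNA of 1 mouse, and a lower level can therefore mean fewer cells of a type or less RNA per cell, which cannot be told apart.

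Hepcidin is a small peptide hormone that hepatocytes secrete when iron is plentiful or in inflammation. It binds the iron exporter ferroportin, encoded by Slc40a1, on macrophages, enterocytes and hepatocytes and leads to its removal from the cell surface, which keeps iron inside. Its transcription is driven by bone morphogenetic proteins from the sinusoidal endothelium, among them Bmp6, with Hfe and Tfr2 as sensors of transferrin-bound iron, while transferrin (Trf) carries iron in plasma, Tfrc takes it up and the ferritin chains Fth1 and Ftl1 store it. The mouse has 2 hepcidin genes, and Hamp is the one whose peptide is known to regulate iron.

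The total count per library ranged from 15361901 to 26261394. Mup reads were seen in 3 of the 12 KO libraries, with at most 11 counts, against at least 70768 counts in the WT libraries, so that the libraries matched their genotype labels. The 7 hepatocyte markers summed to between 100394 and 155159 CPM (counts per 1000000 counts of tested genes, with library sizes scaled by TMM), and Alb, the albumin gene of hepatocytes, was the most abundant of them in these livers. No pair of mice within a group differed by less than the sampling noise of the counts. For differences between groups, the quasi-likelihood test of edgeR was run across all 12330 genes, and a gene was called at a Benjamini-Hochberg adjusted p-value under 0.05.

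Both hepcidin genes lie on the minus strand of chromosome 7 (GRCm38), Hamp at 30942368 to 30944032 and Hamp2 at 30922372 to 30924681, with 17686 bases between them. Their coding sequences are 249 bases long each and identical at 233 of these (93.6%). The last 75 coding bases, which encode the 25 residues of the mature peptide, are shown because the differences between the genes concentrate there, with 14 of the 16 coding differences, in capitals. They lie at chr7:30942480-30942554 for Hamp and chr7:30922511-30922585 for Hamp2 on the minus strand of GRCm38. The letters were read from the GENCODE M21 transcript sequences.
Hamp: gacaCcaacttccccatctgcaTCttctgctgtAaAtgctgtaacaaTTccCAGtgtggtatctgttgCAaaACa
Hamp2: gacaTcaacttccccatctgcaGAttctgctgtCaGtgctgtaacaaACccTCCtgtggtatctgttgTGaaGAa

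The 250 bases before the RefSeq transcription start (GRCm38.p6, minus strand) are shown because the 2 genes share most of these letters but differ in their levels. The windows are chr7:30944030-30944279 for Hamp and chr7:30924182-30924431 for Hamp2. The Hamp window begins at the 5′ end of the gene span given above (30944032), whereas the Hamp2 window lies inside its span, which reaches to 30924681. For Hamp2 the 2 annotations thus place the start differently. Capitals mark matches to 3 motifs searched on both strands, the GGCGCC core of BMP-responsive elements, the STAT motif TTCNNNGAA and the AP-1 motif TGAGTCA, which do not overlap each other here.
Hamp: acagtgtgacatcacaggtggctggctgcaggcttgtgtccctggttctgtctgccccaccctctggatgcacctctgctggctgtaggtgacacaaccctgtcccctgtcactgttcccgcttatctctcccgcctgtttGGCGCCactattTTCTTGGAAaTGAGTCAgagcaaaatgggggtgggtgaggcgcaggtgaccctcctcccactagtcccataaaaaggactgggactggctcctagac
Hamp2: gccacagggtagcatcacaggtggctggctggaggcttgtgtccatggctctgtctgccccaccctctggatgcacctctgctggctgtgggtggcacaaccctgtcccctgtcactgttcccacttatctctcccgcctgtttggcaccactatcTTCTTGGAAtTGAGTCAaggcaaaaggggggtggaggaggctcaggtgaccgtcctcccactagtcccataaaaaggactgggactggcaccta

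The windows were identical at 227 of 247 aligned bases (91.9%). GGCGCC was present in Hamp at positions 142 to 147, and the Hamp2 window, which holds none, differs there by the substitution G145A, counted from 1 at the 5′ end of the Hamp run. TTCNNNGAA and TGAGTCA were found in both windows. Over 32851 such windows of 27025 genes, 9.59% held GGCGCC, 7.02% TTCNNNGAA and 4.46% TGAGTCA. These matches describe letters only, and binding was not measured.

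Hamp2 was the member with the largest difference between the sexes and was far higher in females, whereas Hamp differed less and passed the threshold in KO mice alone. In CPM, Hamp2 ranged from 4.39 over a median of 13.6 to 20.8 in mWT and from 9.03 over 13.9 to 28.1 in mKO mice. It ranged from 128 over 260 to 526 in fWT and from 130.0 over 178 to 484 in fKO mice. Every female was above every male, and the highest of the fWT mice exceeded the lowest 4.11-fold. The log2 fold change of fWT compared to mWT mice was 4.48 (SE 0.51, 22.4-fold, 95% interval 11.2 to 44.6, edgeR adjusted p = 1.84e-06), and that of fKO compared to mKO mice was 3.97 (SE 0.49, 15.7-fold, edgeR adjusted p = 7.16e-06).

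Hamp, the iron-regulating hepcidin, ranged from 531 over a median of 1087 to 1306 CPM in mWT and from 526 over 862 to 1276 CPM in mKO mice. It ranged from 1223 over 1418 to 1922 CPM in fWT and from 1018 over 1482 to 1846 CPM in fKO mice. The groups overlapped in both genotypes, with the upper males at the level of the lower females. The log2 fold change of females compared to males was 0.56 (SE 0.22, 1.47-fold, edgeR adjusted p = 0.0867) in WT mice, which missed the threshold, and 0.72 (SE 0.22, 1.65-fold, edgeR adjusted p = 0.0298) in KO mice. The call in KO mice ended without mKO mouse 2, 5 or 6 or fKO mouse 1 or 6 (adjusted p from 0.0611 to 0.0704). The sex difference of Hamp did not differ detectably between the genotypes (interaction 0.17, SE 0.31, edgeR adjusted p = 0.955).

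**Figure D1:**
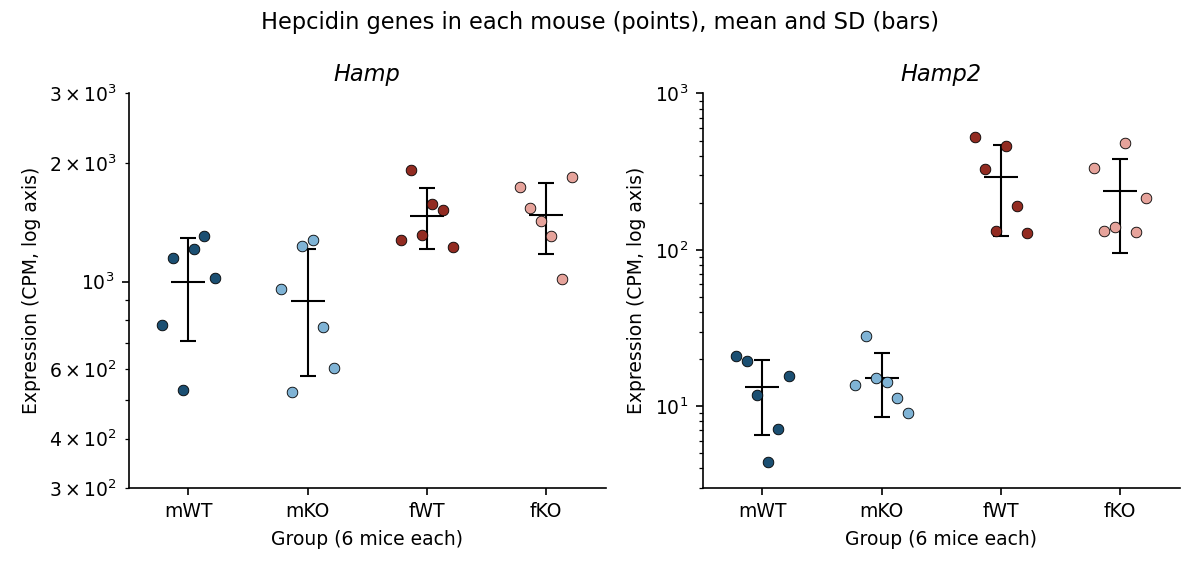
Expression of Hamp (left) and Hamp2 (right) in CPM on log axes, with 1 point per mouse, 6 mice per group, and bars for the mean and SD. For Hamp2 all females lie at 128 CPM or above and all males at 28.1 CPM or below, whereas for Hamp the sexes overlap between 1223 and 1306 CPM in WT and between 1018 and 1276 CPM in KO mice.

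Reads of both hepcidin genes together amounted to 1013 ± 291 CPM (SD, n = 6) in mWT, 909 ± 315 CPM in mKO, 1765 ± 342 CPM in fWT and 1716 ± 345 CPM in fKO mice. This sum and the share of Hamp2 in it were chosen after seeing the data. The sum was higher in females in both genotypes (two-sided exact permutation test, 0.00216 in WT, the smallest p that 6 against 6 mice allow, and 0.00649 in KO mice, Benjamini-Hochberg adjusted over 8 tests 0.00577 and 0.013), with ratios of 1.74 and 1.89. Between KO and WT mice it did not differ detectably (exact permutation p = 0.561 in males and 0.812 in females). Hamp2 contributed 1.47 ± 0.885% of these reads in mWT and 1.95 ± 1.54% in mKO mice. In females the share was 16 ± 8.18% in fWT and 13.7 ± 7.19% in fKO mice, with single mice between 7.88 and 29.2%. The share differed between the sexes in both genotypes (exact permutation p = 0.00216 and adjusted 0.00577 each) but not detectably between KO and WT mice (exact permutation p = 0.654 in males and 0.615 in females). Hamp2 had already been seen to separate all females from all males, while Hamp overlapped. The sex test of the share therefore adds no support to the Hamp2 call. The sum contains Hamp2, so its sex test is not independent of that call either. On average Hamp2 supplied 294 CPM of the sum in fWT and 13.2 CPM in mWT mice, and 239 CPM in fKO and 15.2 CPM in mKO mice. The share counts reads and not molecules, since the exons of Hamp span 410 and those of Hamp2 583 bases. No run of 100 bases is shared between the annotated transcripts of the 2 genes, so a full-length read without errors belongs to 1 of them, but how reads with several matches were treated is not stated.

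**Figure D2:**
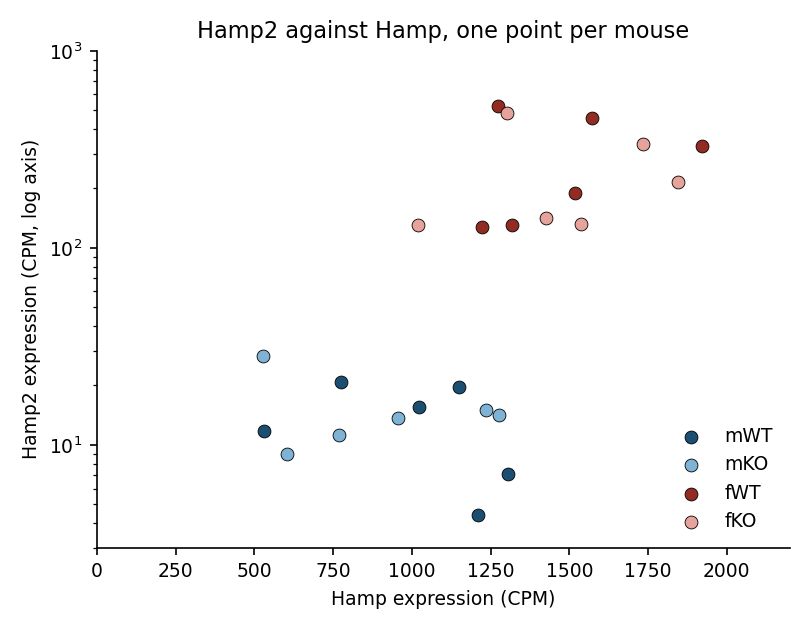
Hamp2 (log axis) against Hamp (linear axis) in CPM, with 1 point per mouse coloured by group. The 12 females lie apart from the 12 males along the Hamp2 axis, and within either sex the points show no clear slope.

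Within the sexes, Hamp and Hamp2 were not detectably correlated across mice. Pearson's r of log2 CPM was −0.32 (permutation p = 0.318) and Spearman's rho −0.25 (permutation p = 0.431) in the 12 males, and 0.30 (permutation p = 0.345) and 0.34 (permutation p = 0.275) in the 12 females. Without the 2 mice farthest from the median of Hamp, r was −0.13 in males and 0.05 in females, and the adjusted p-values were 0.742 for r and 0.702 for rho in either sex. Of 26 relations computed among members and marker sums within the sexes, 0 passed an adjusted p of 0.05 and 1 had an unadjusted p under 0.05, that of Bmp6 with the endothelial markers given below.

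Among all genes tested, the levels of Ybx3 (r = 0.82), Rnase4 (0.80), Ang (0.79), Sat2 (0.77) and Ces1b (0.76) followed Hamp most closely over the 24 libraries. Those of Slc22a27 and Sult2a2, Sult2a5, Sult2a6 and Sult2a1 followed Hamp2 most closely, all with r = 0.97. The 4 Sult2a sulfotransferases are near-identical copies among which reads may have been split. These correlations are a description over mice of both sexes, which fall into separate clusters for Hamp2.

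Of the regulators upstream of hepcidin, Bmp6 (chromosome 13, 38345107 to 38500302, plus strand), a ligand of the BMP receptors, was at the lowest level of all members, between 43 and 161 counts per library. It ranged from 2.74 over a median of 3.12 to 4.61 CPM in mWT, from 2.56 over 3.72 to 4.24 CPM in mKO, from 3.91 over 4.72 to 5.76 CPM in fWT and from 3.27 over 4.17 to 6.07 CPM in fKO mice. In WT mice the sexes overlapped through the highest mWT mouse alone, and in KO mice they overlapped widely. Bmp6 was 1.46-fold higher in fWT than in mWT mice (log2 fold change 0.54, SE 0.16, edgeR adjusted p = 0.017), while the difference in KO mice of 0.30 (SE 0.16) missed the threshold (edgeR adjusted p = 0.205). Bmp6 shares 3.29% of its 100-base runs with the opposite strand of Txndc5, which had 2279 to 3827 counts per library and was lower in fWT than in mWT mice (log2 fold change −0.37, edgeR adjusted p = 0.00201), and whether strand was used in counting is not stated.

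Sinusoidal endothelial cells, the main hepatic source of Bmp6, were followed by 8 markers. Of these, 3 were higher in fWT than in mWT and 1 was higher in fKO than in mKO mice, beside 8.81% and 7.13% of all genes. All 8 had positive estimates in both genotypes, and 0 were called for the interaction. In the average over WT and KO mice 6 of the markers were called higher in females by edgeR, beside 30.4% of all genes called in either direction. DESeq2 also called 6. Their summed level ran from 190 to 250 CPM in mWT, 197 to 239 CPM in mKO, 208 to 296 CPM in fWT and 209 to 295 CPM in fKO mice. In a relation added after seeing the data, Bmp6 and this sum had r = 0.35 (permutation p = 0.272) and rho = 0.51 (permutation p = 0.0934) across the 12 males, with r = 0.17 without the 2 mice farthest from the median and adjusted p-values of 0.742 and 0.702. Across the 12 females they had r = 0.62 (permutation p = 0.033) and rho = 0.67 (permutation p = 0.0208), with r = 0.62 without the 2 mice farthest from the median, and the adjusted p-values were 0.742 and 0.54. How far the endothelial markers account for the sex difference of Bmp6 was not tested.

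Hfe (chromosome 13, 23702034 to 23710854, minus strand), whose protein is mutated in the commonest hereditary iron overload, had lower estimates in females in both genotypes. It ranged from 39.9 over a median of 41.8 to 44.8 CPM in mWT and from 42.5 over 46.0 to 48.8 CPM in mKO mice. In females it ranged from 32.9 over 37.3 to 40.6 CPM in fWT and from 36.7 over 42.5 to 44.5 CPM in fKO mice. The log2 fold change of females compared to males was −0.19 (SE 0.07, edgeR adjusted p = 0.0525) in WT and −0.15 (SE 0.07, edgeR adjusted p = 0.127) in KO mice, so that neither passed the threshold. In WT mice it passed without fWT mouse 1, 2 or 4 or fKO mouse 4 or 5 (adjusted p from 0.0332 to 0.0494). Tfr2 (chromosome 5, 137569840 to 137587481, plus strand), the other transferrin receptor and a partner of Hfe, lay between 204 and 324 CPM in all 24 mice, with differences between the sexes of 0.06 (SE 0.09) in WT and 0.09 (SE 0.09) in KO mice on the log2 scale that missed the threshold (edgeR adjusted p = 0.697 and 0.564).

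For iron supply and uptake, Trf (chromosome 9, 103204001 to 103230444, minus strand), the plasma carrier that hepatocytes make, was higher in females in both genotypes. It ranged from 10273 over a median of 12671 to 15205 CPM in mWT and from 11145 over 13229 to 14460 CPM in mKO mice. It ranged from 15398 over 16255 to 18816 CPM in fWT and from 15428 over 17606 to 19091 CPM in fKO mice. All females were above all males of their genotype, with a log2 fold change of 0.40 (SE 0.09, 1.32-fold, edgeR adjusted p = 0.00254) in WT and 0.42 (SE 0.09, 1.34-fold, edgeR adjusted p = 0.00178) in KO mice. Of the 100-base runs of Trf, 53.2% are also annotated to Gm20425 on the same strand, for which the counts hold no entry. Tfrc (chromosome 16, 32608920 to 32632794, plus strand), the transferrin receptor for cellular uptake, ranged from 17.1 to 38.4 CPM over all mice, and its sex differences of −0.06 (SE 0.17) in WT and 0.00 (SE 0.17) in KO mice missed the threshold (edgeR adjusted p = 0.86 and 0.998).

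The storage chains did not pass the threshold for sex. Fth1 (chromosome 19, 9980598 to 9985098, plus strand), the ferroxidase chain of ferritin, ranged from 984 to 1436 CPM over the 24 mice, with log2 fold changes of females compared to males of 0.05 (SE 0.08, edgeR adjusted p = 0.736) in WT and −0.14 (SE 0.08, edgeR adjusted p = 0.28) in KO mice. Ftl1 (chromosome 7, 45457944 to 45459884, minus strand), the light chain, ranged from 848 to 1373 CPM, with log2 fold changes of 0.06 (SE 0.12, edgeR adjusted p = 0.764) in WT and −0.20 (SE 0.12, edgeR adjusted p = 0.261) in KO mice. Ferritin is known to be controlled largely at translation, which these counts do not measure. Ftl1 shares 34.4% of its 100-base runs with 4 other annotated genes or pseudogenes on the same strand and 18.9% with genes on the opposite strand. Of these, Ftl1-ps1 had at most 1 count and Gm10252 at most 4 counts per library, and the others have no entry in the counts. How shared reads were treated is not stated, and the level of Ftl1 is uncertain to that extent.

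Slc40a1 (chromosome 1, 45908068 to 45926523, minus strand), which encodes the exporter ferroportin, was called higher in females in KO mice and missed the threshold in WT mice. It ranged from 119 over a median of 153 to 202 CPM in mWT and from 101 over 135 to 186 CPM in mKO mice, and from 142 over 222 to 257 CPM in fWT and from 167 over 203 to 242 CPM in fKO mice. The sexes overlapped in both genotypes, in KO mice through the highest mKO mouse alone. The log2 fold change of females compared to males was 0.54 (SE 0.15, 1.46-fold, edgeR adjusted p = 0.0136) in KO mice and 0.39 (SE 0.15, 1.31-fold, edgeR adjusted p = 0.0705) in WT mice. In WT mice it passed the threshold without mWT mouse 2, mWT mouse 5 or fWT mouse 4 (adjusted p from 0.0193 to 0.0459).

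Ferroportin is abundant in macrophages, and the 7 Kupffer cell markers moved with sex as well. Of these, 4 were higher in fWT than in mWT mice (Vsig4, Cd5l, Clec4f and Csf1r), beside 8.81% of all genes. Between fKO and mKO mice 0 passed by edgeR or DESeq2, beside 14.4% of all genes by edgeR, with 2 at an unadjusted p under 0.05 by edgeR. All 7 had positive estimates in both genotypes (median log2 fold change 0.73 in WT and 0.45 in KO mice), and 0 were called for the interaction. In the average over WT and KO mice 6 of the markers were called higher in females by edgeR and 7 by DESeq2, beside 30.4% of all genes by edgeR. Their summed level ran from 80.5 to 162 CPM in mWT, 75.7 to 213 CPM in mKO, 146 to 267 CPM in fWT and 120 to 215 CPM in fKO mice. In a relation added after seeing the data, Slc40a1 and this sum had r = 0.16 (permutation p = 0.632) and rho = 0.08 (permutation p = 0.799) across the 12 males, and r = 0.08 (permutation p = 0.812) and rho = 0.24 (permutation p = 0.445) across the 12 females, with adjusted p-values of 0.702 or higher. Without the 2 mice farthest from the median r was −0.22 in males and 0.34 in females. How far these markers account for the sex difference of Slc40a1 was not tested.

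**Figure D3:**
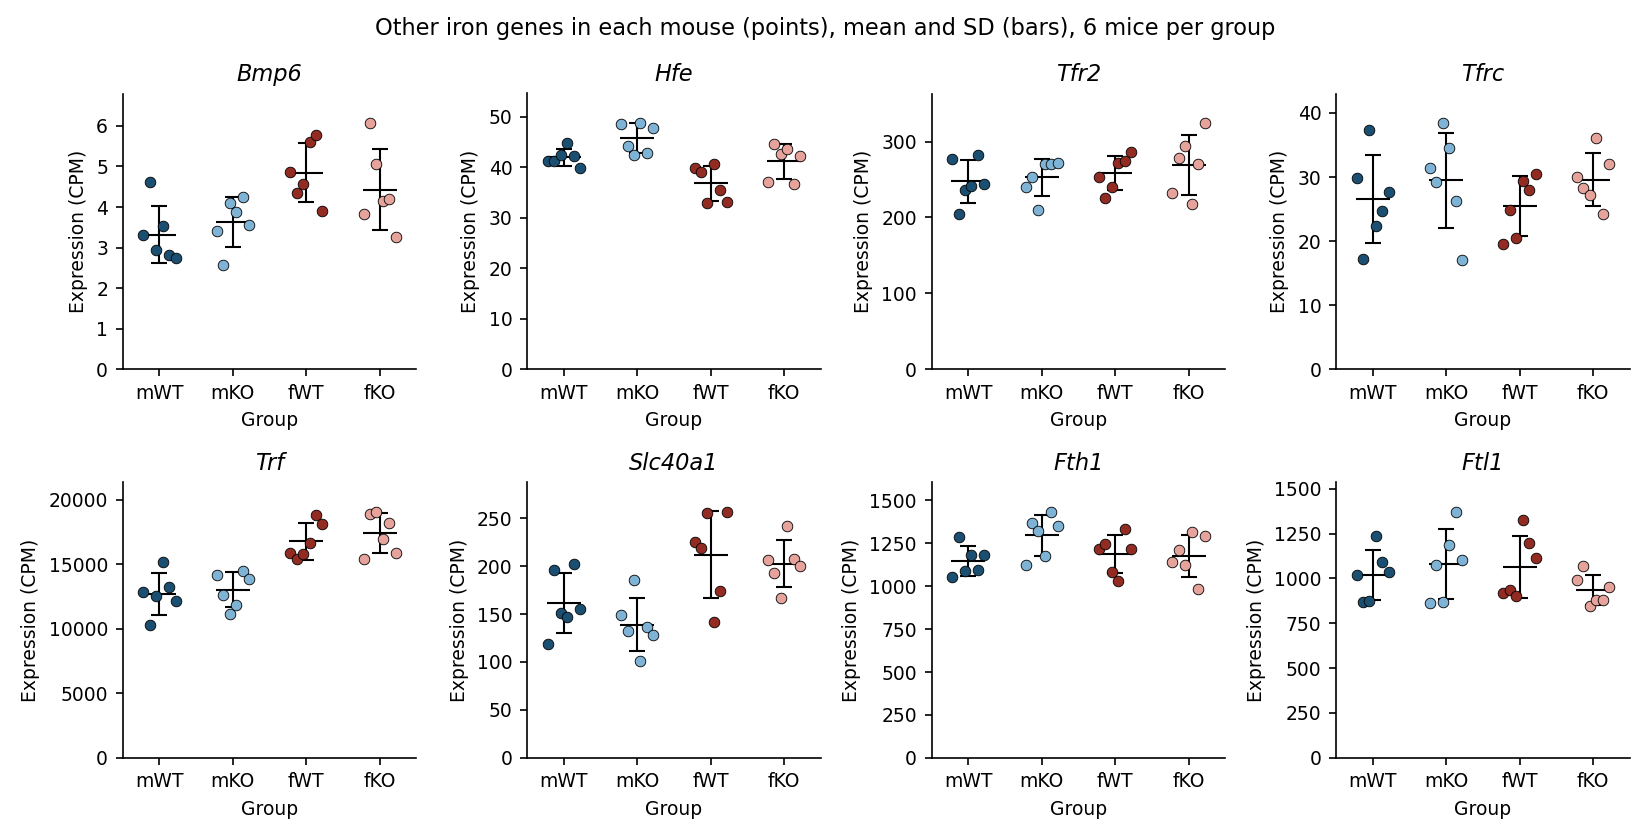
Expression in CPM of the 8 members other than the hepcidins, with 1 point per mouse, 6 mice per group, and bars for the mean and SD, on axes from 0. Trf shows all females above all males of the same genotype, the means of Bmp6 and Slc40a1 are higher and those of Hfe lower in females with overlap, and Tfr2, Tfrc, Fth1 and Ftl1 overlap widely.

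Counted together, 3 of the 10 members were called between fWT and mWT mice, against 17.3% of all genes tested, and all of these were higher in females, against 8.81% of all genes. Without fWT mouse 4 the count was 5 of 10, and with DESeq2 on all mice it was also 5. In KO mice 4 of 10 were called, all higher in females (14.4% of all genes in either direction and 7.13% higher). The median log2 fold change of the members was 0.23 in WT and 0.20 in KO mice, beside 0.00 over all genes in both. Hamp2 and Trf were the members whose sexes did not overlap, in WT mice as in KO mice, beside 7.7% and 7.26% of all genes. With the sex difference averaged over WT and KO mice, a contrast chosen after seeing the data, 6 of 10 members were called, against 30.4% of all genes. These were Hamp2 (4.23), Hamp (0.64), Slc40a1 (0.47), Bmp6 (0.42) and Trf (0.41), higher in females, and Hfe (−0.17), lower, and each was called whichever mouse was left out.

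On a scale per kilobase of exon, so that genes can be compared, Trf had the highest mean level with 4511 CPM per kb (3094 to 5750), followed by Hamp with 2952 (1283 to 4687), whose ranges overlapped. Ftl1 came next with 765 (633 to 1025) and Fth1 with 347 (284 to 414), without overlap between any of Hamp, Ftl1 and Fth1. The lengths used were 1340 bases for Ftl1 and 3469 bases for Fth1. Without division by length, Fth1 had the higher mean CPM in every group, for example 1148 against 1021 CPM in mWT mice. Hamp2, with a mean of 241 CPM per kb, spanned from 7.53 in the lowest male to 902 in the highest female and so reached from below Slc40a1 to the range of Ftl1. Tfr2 with 59.3 CPM per kb lay above Slc40a1 with 19.9, which overlapped with Hfe at 11.6. Tfrc with 4.49 and Bmp6 with 1.04 were lowest, each in a range of its own.

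The KO of the Mup cluster was not followed by a detectable change of any member. By edgeR 0 of 10 members were called in males, against 0.211% of all genes, and 0 of 10 in females, against 0.0892%, and DESeq2 also called 0 in either sex. At an unadjusted p under 0.05, 1 of 10 stood out in each sex, beside 10.6% of all genes in males and 4.87% in females. For Hamp the log2 fold change of KO compared to WT mice was −0.16 (95% interval −0.59 to 0.27, edgeR adjusted p = 0.878) in males and 0.01 (−0.43 to 0.44, edgeR adjusted p = 1.0) in females. For Hamp2 it was 0.22 (−0.70 to 1.13, edgeR adjusted p = 0.933) in males and −0.30 (−1.14 to 0.55, edgeR adjusted p = 0.962) in females, so that the intervals reach a 2.19-fold level in KO males and a 0.453-fold level in KO females. For Slc40a1 it was −0.22 (−0.51 to 0.07) in males and −0.06 (−0.35 to 0.22) in females, and for Trf 0.04 (−0.14 to 0.21) and 0.05 (−0.12 to 0.23).

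Hfe was numerically higher in KO mice of both sexes, by 0.12 (SE 0.07, edgeR adjusted p = 0.53) on the log2 scale in males and 0.16 (SE 0.07, edgeR adjusted p = 0.929) in females. Averaged over the sexes the difference was 0.14 (SE 0.05), with an unadjusted p of 0.00587 and an edgeR adjusted p of 0.299. Hfe was the only member under the unadjusted cut-off of 0.01 in any KO comparison, beside 2.83% of all genes for this average. In the average 0 of 10 members were called by edgeR or DESeq2 (0.17% of all genes by edgeR), with 1 at an unadjusted p under 0.05 (9.57% of all genes). Fth1 was higher in mKO than in mWT mice by 0.18 (SE 0.08, unadjusted p = 0.0421, edgeR adjusted p = 0.449). The effect of the KO did not differ detectably between the sexes for any of the 10 members (0 called by edgeR, against 0.00811% of all genes, 0 by DESeq2 and 0 at an unadjusted p under 0.05, against 5.96%).

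**Figure D4:**
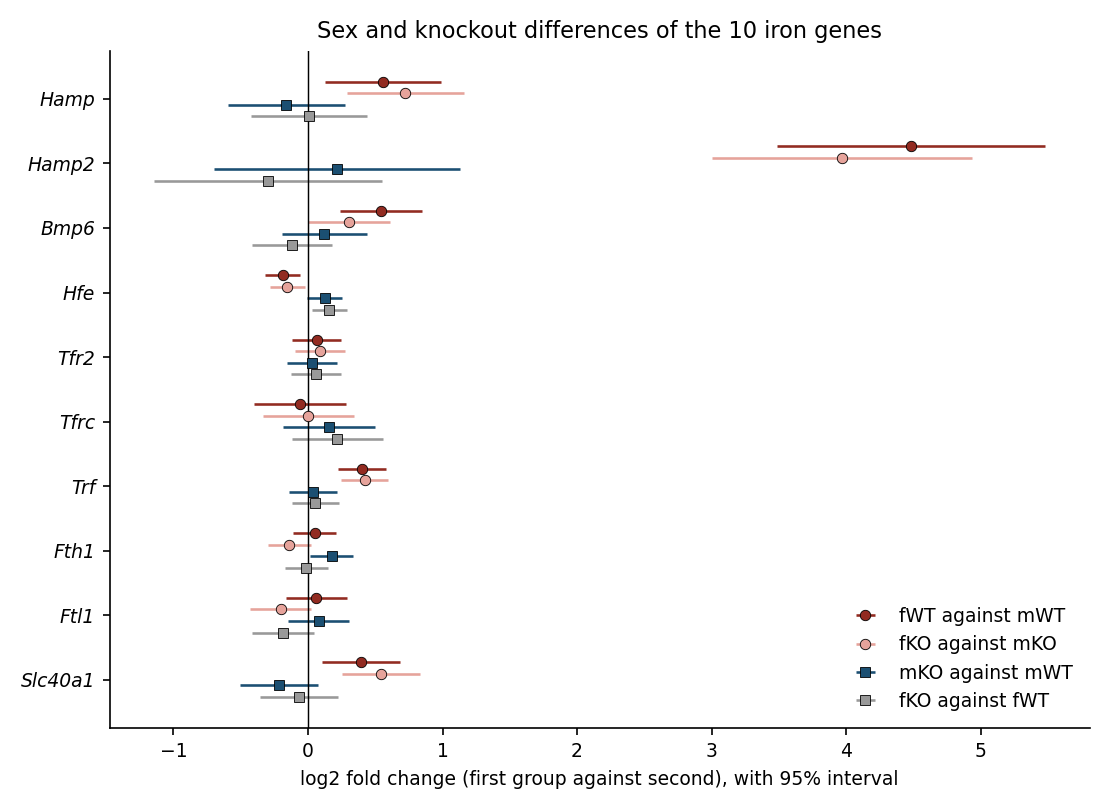
Log2 fold changes of the 10 members for both sex comparisons (circles) and both KO comparisons (squares), with 95% intervals of the edgeR fit. Hamp2 stands out at 4.48 and 3.97 for sex, and for all members the KO estimates lie between −0.30 and 0.22.

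The wider pathway was followed in 5 lists with 83 genes, of which 78 were expressed above the filter. In these lists 17 genes were called between fWT and mWT mice (10 higher and 7 lower in females) and 14 between fKO and mKO mice (9 higher and 5 lower), which is 21.8% and 17.9% of those tested, beside 17.3% and 14.4% of all genes. Without fWT mouse 4 the count in WT mice was 11. The median log2 fold change over all 78 genes was −0.00 in WT and −0.01 in KO mice.

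Among 22 tested genes of hepcidin regulation, 5 were higher in females in each genotype and 0 lower. This was 22.7% of those tested, beside 8.81% of all genes higher in WT and 7.13% in KO mice. Fgl1, a liver protein known to bind BMP ligands and to lower hepcidin, ranged from 92.5 to 256 CPM in mWT and from 291 to 459 CPM in fWT mice, without overlap. Its log2 fold change was 1.36 (SE 0.27, edgeR adjusted p = 0.00094) in WT and 1.81 (SE 0.27, edgeR adjusted p = 4.64e-05) in KO mice. Smad6, an inhibitory SMAD that BMP signals induce, was higher by 0.75 in WT and 0.77 in KO mice, and Bmp2, the other endothelial BMP ligand, by 0.43 and 0.39. Acvr1, a BMP type I receptor, was called higher in WT (0.39) and Smad7, a second inhibitory SMAD, in KO mice (0.68). Of these calls, that of Smad6 in WT mice ended without fWT mouse 4 (adjusted p = 0.0858), that of Acvr1 without mWT mouse 2 or fWT mouse 1 or 4, that of Bmp2 in KO mice without mKO mouse 2 or 3 or fKO mouse 2 or 3, and that of Smad7 without any 1 of 8 mice (adjusted p up to 0.0969).

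Among 20 tested transport genes, 4 were higher and 2 lower in fWT than in mWT mice, and 3 were higher and 2 lower in fKO than in mKO mice. These calls made up 30% and 25% of those tested, beside 17.3% and 14.4% of all genes. Flvcr2, a membrane carrier, was higher in females by 1.43 in WT and 1.20 in KO mice, and Steap2, a metalloreductase, by 0.96 and 1.24 on the log2 scale. Scara5, a scavenger receptor that can bind ferritin, was present in males at 3.42 to 66.2 CPM in mWT and 6.43 to 65.7 CPM in mKO mice and nearly lacking in females, with 0 to 0.439 CPM in fWT (at most 8 counts) and 0.0377 to 1.92 CPM in fKO mice (edgeR adjusted p = 1.61e-05 in WT and 0.000149 in KO mice). No fold is given for Scara5, because it rests on so few reads in females. Slc11a2, the divalent metal transporter, had log2 fold changes of −0.44 in WT and −0.37 in KO mice and was called lower in both. Lcn2, a siderophore-binding protein of the acute phase, was called in KO mice (1.70) but depended on single mice, with a log2 fold change of 0.91 (edgeR adjusted p = 0.159) without fKO mouse 6, and the call also ended without any 1 of mKO mice 1 to 5.

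Slc39a8, a carrier of zinc, manganese and iron, was the only one of the 78 genes called for the KO in males, against 0.211% of all genes. It ranged from 17.9 to 24 CPM in mWT and from 25.7 to 33.5 CPM in mKO mice without overlap, beside 1.09% of all genes. Its log2 fold change was 0.51 (SE 0.11, edgeR adjusted p = 0.0457), and leaving out any 1 of 13 mice ended the call (adjusted p up to 0.167), as did removal of the Mup genes from the test (adjusted p = 0.134) and non-robust dispersions (adjusted p = 0.0517). In females it was 0.18 (SE 0.11, edgeR adjusted p = 0.929), and the difference between the sexes had an edgeR adjusted p of 0.829. By edgeR and by DESeq2 0 of the 78 genes were called for the KO in females, against 0.0892% of all genes by edgeR. At an unadjusted p under 0.05 by edgeR there were 3, beside 4.87% of all genes. Slc39a8 was also higher in fWT than in mWT mice by 0.47 (SE 0.11, edgeR adjusted p = 0.00334).

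Of the genes of iron sensing and storage, Fbxl5, the ubiquitin ligase subunit that senses iron, was higher in females by 0.29 in WT and 0.30 in KO mice, and 1 further gene of the 8 tested for sensing and storage was called in WT mice. This was Ncoa4, the adaptor for ferritin breakdown, with a log2 fold change of −0.31, a call that ended without any 1 of 15 mice (adjusted p up to 0.155). The calls for sensing and storage made up 25% of the 8 in WT and 12.5% in KO mice, beside 17.3% and 14.4% of all genes. Of 12 genes of haem synthesis and breakdown, 1 was lower in fWT than in mWT mice (Fech, ferrochelatase, −0.21) and 1 lower in fKO than in mKO mice. This was 8.33% in each genotype, below the share of all genes called (17.3% in WT and 14.4% in KO mice). Of 16 genes of iron-sulphur cluster assembly, 3 were lower (Fdx1 −0.55, Nubp1 −0.39 and Iscu −0.30) and 0 higher in fWT than in mWT mice. Between fKO and mKO mice 2 were lower and 0 higher. These shares of 18.75% and 12.5% were near those of all genes called (17.3% and 14.4%). Iscu, the assembly scaffold, was also lower in fKO than in mKO mice (−0.55, edgeR adjusted p = 6.6e-06). It ranged from 41.2 to 47.3 CPM in mWT, 43.6 to 52.7 CPM in mKO, 30.4 to 41.3 CPM in fWT and 32.0 to 38.9 CPM in fKO mice. Single mice ended the calls of Fbxl5 in WT (fWT mouse 3) and Fech (mWT mouse 6 or fWT mouse 4), with adjusted p up to 0.0625.

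**Figure D5:**
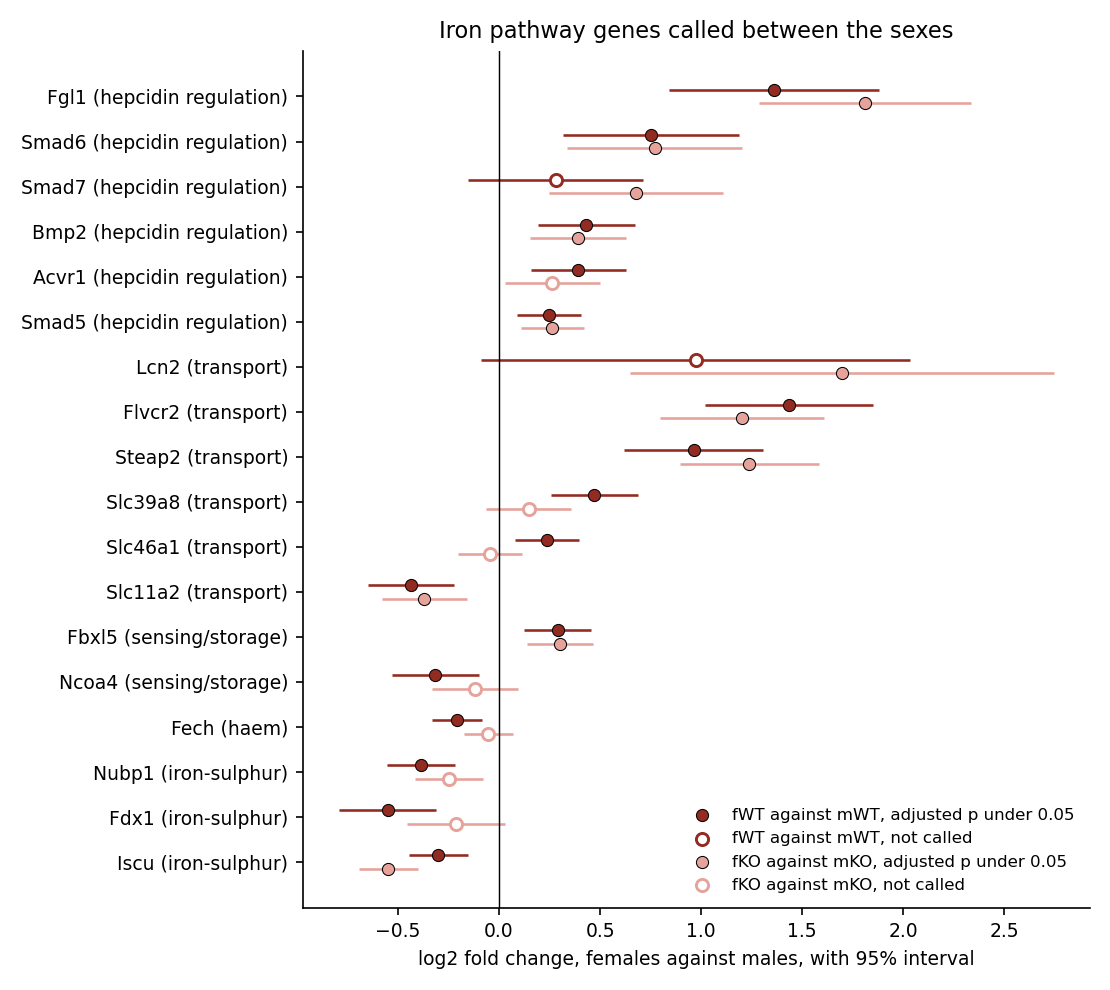
Log2 fold changes of females compared to males with 95% intervals for 18 pathway genes called in WT mice (dark) or KO mice (light), where filled circles passed the threshold and open circles did not. Scara5 is not drawn because its level in females rests on few reads. The genes of hepcidin regulation lie to the right of 0 and those of iron-sulphur cluster assembly to the left.

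Inflammation is known to induce hepcidin, and the 12 acute-phase genes were therefore counted beside Hamp. Of these, 4 were called between fWT and mWT mice (3 higher in females), beside 17.3% of all genes, and 5 between fKO and mKO mice (5 higher), beside 14.4%. In the average over WT and KO mice 7 of the 12 genes were called by edgeR (6 higher in females), beside 30.4% of all genes. Their summed level ran from 11821 to 15529 CPM in mWT, 13563 to 19078 CPM in mKO, 14563 to 16677 CPM in fWT and 15012 to 23103 CPM in fKO mice. Saa1, the most inducible of them, had 34.2 ± 7.11 CPM (SD, n = 6) in mWT, 33.9 ± 8.52 CPM in mKO, 24.2 ± 8.61 CPM in fWT and 36.6 ± 23.3 CPM in fKO mice. Across mice within a sex, Hamp and the sum of Saa1 and Saa2, a relation added after seeing the data, had r = −0.11 (permutation p = 0.734) and rho = −0.08 (permutation p = 0.819) in the 12 males, with r = 0.02 without the 2 mice farthest from the median. In the 12 females r was 0.38 (permutation p = 0.219) and rho 0.34 (permutation p = 0.277), with r = 0.33 without 2 mice, and the adjusted p-values were 0.702 or higher. By edgeR and by DESeq2 0 of the 12 passed for the KO in either sex, with 4 in males and 2 in females at an unadjusted p under 0.05 by edgeR, beside 10.6% and 4.87% of all genes.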

How the data were processed

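The authors prepared stranded mRNA libraries from liver RNA, sequenced them in one multiplex as 100 bp single-end reads, trimmed with fastp 0.20, aligned to GRCm38.p6 with STAR 2.7a (versions per the submitters' processing notes) and deposited raw counts per Ensembl gene from featureCounts of Rsubread. Annotation release, strand setting and handling of reads with several matches are not given in the sources used here. Of 25746 genes, 25712 were matched to GENCODE M21 (GRCm38).

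Counts were analysed with edgeR 4.0.16 in R 4.3.3. Genes reaching 0.66 CPM in 6 or more of the 24 libraries were kept (12330), scaled by TMM, and fitted with robust quasi-likelihood dispersions and 1 mean per group over all 24 libraries. The 95% intervals were taken from the SE under a normal approximation. Beside the adjusted threshold, the unadjusted cut-off of 0.01 from the study's methods was counted. Hepcidin sums and shares were compared with exact permutation tests and correlations (log2 CPM, prior count 2) with 100000 permutations. The members and lists were chosen with earlier results of these data known. Members are always named, and from each list up to 4 called genes with the largest log2 fold change. Slc11a2, Saa1, Hbb-bs, Alas2, Spp1, Txndc5 and the Kupffer markers fall outside this rule and were named after their values were seen. Alternatives were DESeq2 1.42.0, its size factors, other filters, dispersions and deviances, removal of the Mup genes, only the groups compared, the mouse number as a block and each mouse left out. Depth was 15361901 to 26261394 counts, and 3 counts correspond to at most 0.195 CPM before scaling. On simulated counts for fWT against mWT (12246 genes), 89 of 100 genes changed by a log2 fold change of 1 and 95 of 100 changed by 2 were recovered, and 5 of 189 calls were false. Changes smaller than 1 were not simulated. The recovery therefore does not cover the sex differences of the members other than Hamp2, or any of their KO estimates. Some genes of the lists enter the counts but are not reported by name here. Promoter windows are from RefSeq (both genes matched).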

Additional observations from a re-analysis of the deposited data

Results flagged for a closer look

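In mKO mouse 2, Hamp2 was at 28.1 CPM (614 counts), apart from the other 5 mKO mice, of which the next had 15 CPM. The gap was 0.686 of the range of the group, above the 0.625 that Dixon's test allows for 6 values. In the same mouse Hamp2 made up 5.07% of hepcidin reads, compared to 1.48% in the next mouse, with a gap of 0.906 of the range. Hamp in this mouse, with 526 CPM, was the lowest of the group. Without this mouse Hamp2 in mKO mice was 12.6 ± 2.46 CPM (SD, n = 5), its share was 1.32 ± 0.163%, the share still differed from fKO mice (two-sided exact permutation p = 0.00433) and the log2 fold change of Hamp2 in fKO compared to mKO mice was 4.24. As above, the test of the share follows largely from the separation of the sexes by Hamp2. The difference in summed hepcidin reads, which include those of Hamp2, had an exact permutation p of 0.013 without this mouse. Chance flags about 1 in 20 groups, and 2 of 44 groups were flagged here.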

How the results depend on the processing

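Hamp2 and Trf kept their sex calls in both genotypes, and 0 members were called for the KO or the interaction, under every alternative run. DESeq2 called 5 instead of 3 members between fWT and mWT mice (adding Hamp, adjusted p = 0.0455, and Hfe, adjusted p = 0.0337), and leaving out 1 mouse gave 3 to 5, with 5 without fWT mouse 4. Hfe also passed in WT mice with DESeq2's size factors (0.0462), with filterByExpr (0.0497) and without the Mup genes (0.0459). Hamp in KO mice missed the threshold without the filter (0.0558) and with only the groups compared (0.0516).

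Over all genes, calls for the KO in males went from 26 to 139 with DESeq2, 49 with only the groups compared and 2 without the Mup genes, and ranged from 19 to 59 with 1 mouse left out (59 without mWT mouse 1 and 40 without mWT mouse 2). In females 11 calls became 18 with DESeq2 and 0 without the Mup genes. Averaged over the sexes 21 became 50 and 1, and for the interaction 1 became 11 with DESeq2. Without the Mup genes, genes that the deletion removes do not enter the test, and the cause of the other shifts was not tested. Among 3681 values of single genes under the alternatives, 68 changed sign, all of differences that were not called (0 called) and were at most 0.22 in size on the log2 scale. The correlation of Hamp with Tfrc in males was −0.028 as Pearson's r and 0.014 as Spearman's rho.

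The mouse numbers name different animals, and the labels tie no number to a litter or batch. Of 36 pairs of same-numbered mice in different groups, 10 had deviations from the group means correlated above 0.1, from −0.335 to 0.253, so the numbers were not taken as pairs. With the number as a replicate block, 4 members were called between fWT and mWT mice (Hfe in addition, adjusted p = 0.0461) and 3 between fKO and mKO mice (Hamp missed at 0.0565), and the counts of genes called for the KO were 24 in males and 11 in females.

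Bmp6 with 43 to 161 counts and Hamp2 in males with 87 to 614 counts per library are the members that depth limits most. Shared runs of bases and the unstated strand setting limit Ftl1, Trf and Bmp6 further.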

Other observations

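Outside the lists of iron genes, Alas2, the erythroid form of the first enzyme of haem synthesis, was lower in female livers. It ranged from 113 to 152 CPM in mWT, 101 to 153 CPM in mKO, 8.48 to 16.4 CPM in fWT and 9.52 to 19.3 CPM in fKO mice, without overlap between the sexes. Its log2 fold change of females compared to males was −3.44 (SE 0.17, edgeR adjusted p = 1.45e-13) in WT and −3.15 (SE 0.17, edgeR adjusted p = 8.31e-13) in KO mice. The 5 tested erythroid markers, of which Alas2 is one, were all called lower in fKO than in mKO mice, beside 14.4% of all genes called in either direction. In WT mice Alas2 was called, beside 17.3% of all genes, while all 5 had negative estimates (median log2 fold change −0.44). The sex difference of these markers was not shown to differ between the genotypes (0 of 5 called for the interaction by edgeR or DESeq2, with 2 at an unadjusted p under 0.05 by edgeR, beside 5.96% of all genes). In the average over WT and KO mice all 5 were called lower in females, beside 30.4% of all genes called in either direction. Hbb-bs, a globin gene, ranged from 25.3 to 53.4 CPM in mWT, 36.3 to 64.7 CPM in mKO, 22.4 to 35.7 CPM in fWT and 21.8 to 30.9 CPM in fKO mice. The summed level of the 7 erythroid markers ran from 149 to 214 CPM in mWT, 155 to 260 CPM in mKO, 40.7 to 67.9 CPM in fWT and 41.2 to 60.7 CPM in fKO mice, and most of it in males was Alas2.

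Of 6 hepatic stellate cell markers, 3 were higher in fWT than in mWT and 4 higher in fKO than in mKO mice, beside 8.81% and 7.13% of all genes. Their sums ran from 243 to 427 CPM in males and from 307 to 464 CPM in females. Of 5 cholangiocyte markers, 3 were tested and 1 (Spp1) was higher in fWT than in mWT mice, beside 8.81% of all genes. The 6 leukocyte markers summed to at most 4.41 CPM in any mouse.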
